A study of Mus musculus with 13 samples.

Results

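The 35 genes described here are interferon-stimulated genes, a set fixed by name: each is known to be switched on by interferon and each had 10 or more counts over the 13 libraries. They were 35 of the 55357 genes of a count table from mouse brown adipose tissue, and 27 of them were among the 11073 genes with enough counts to be tested. The tissue came from mice kept at room temperature (RT) or held at 4 °C for 6 h. Control mice carried Stim1/2_fl/fl, that is, floxed alleles of Stim1 and Stim2, the endoplasmic reticulum calcium sensors that open calcium channels of the plasma membrane. Knockout (KO) mice were Stim1/2_Adp-Cre, in which the adiponectin promoter drives Cre in adipocytes, so the vessels, macrophages and other cells of the tissue are not its target. There were 2 control RT, 3 KO RT, 4 control cold and 4 KO cold libraries. Nothing states that libraries are separate animals, so p-values measure the spread between these libraries. The labels state no age, sex or strain background.

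Interferons are secreted proteins that warn cells of viral infection. Type I interferons bind a receptor coupled to the kinases Jak1 and Tyk2, which phosphorylate Stat2. With Irf9 it enters the nucleus and binds a DNA element built on repeats of GAAA in the promoters of target genes. Type II interferon acts at a different element, a palindrome of TTC and GAA, and induces Irf1, which in turn switches on the genes of antigen presentation. A low, constant level of such signalling keeps many of these genes on in uninfected tissue.

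Promoter sequence was taken from RefSeq (build GRCm38.p6, older than the GRCm39 build of the counts) for the 250 bases before each transcription start, and 26 of the 35 genes had an entry. These genes had 31 promoters in all, and a gene was counted if any of its promoters matched. Both strands were searched for GAAA-NN-GAAA, where N is any base (TTTC-NN-TTTC on the other strand), and for TTC-NNN-GAA, which is its own reverse complement. The first letters were found in 9 of the 26 genes (34.6%), against 3.46% of 27025 genes of the same table. They were in B2m, Bst2, Ifit1, Ifit3, Isg15, Oas1a, Rsad2, Stat2 and Trim30a. The second were found in 6 of 26 genes (23.1%), against 8.13%. They were in Samhd1, Oas1a, Bst2, Irf1, Eif2ak2 and Ifit2. A match describes letters in this window and shows no binding. The 5 promoters below are printed 5′ to 3′ on the strand of the gene, with matches in capitals, because their genes span the range of responses described next. Rsad2 (ENSMUSG00000020641.17, chr12:26456453-26456702, minus strand) fell strongly in the cold and has 1 match that begins 120 bases before the start. Ifit1 (ENSMUSG00000034459.9, chr19:34640639-34640888, plus strand) has 2 matches, 104 and 85 bases before it. Isg15 (ENSMUSG00000035692.8, chr4:156200819-156201068, minus strand), which did not pass the test in the cold, has 3 overlapping matches that begin 78 to 66 bases before it. B2m (ENSMUSG00000060802.9, chr2:122147437-122147686, plus strand) has 1 match at 139 bases. Irf1 (ENSMUSG00000018899.18, chr11:53769764-53770013, plus strand), which fell in both genotypes, has no GAAA-NN-GAAA and carries 1 TTC-NNN-GAA at 90 bases. The other Irf1 promoter (chr11:53770223-53770472), not printed, has no match of either kind.
Rsad2: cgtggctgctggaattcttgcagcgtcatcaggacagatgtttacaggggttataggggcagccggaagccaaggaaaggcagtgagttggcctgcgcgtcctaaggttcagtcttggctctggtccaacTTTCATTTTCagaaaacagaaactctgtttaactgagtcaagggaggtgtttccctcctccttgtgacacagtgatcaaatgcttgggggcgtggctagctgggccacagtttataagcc
Ifit1: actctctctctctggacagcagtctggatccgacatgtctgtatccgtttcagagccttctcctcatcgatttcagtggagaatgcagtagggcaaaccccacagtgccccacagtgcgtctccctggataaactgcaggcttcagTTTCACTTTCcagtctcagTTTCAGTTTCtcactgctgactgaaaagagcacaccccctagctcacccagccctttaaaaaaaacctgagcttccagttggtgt
Isg15: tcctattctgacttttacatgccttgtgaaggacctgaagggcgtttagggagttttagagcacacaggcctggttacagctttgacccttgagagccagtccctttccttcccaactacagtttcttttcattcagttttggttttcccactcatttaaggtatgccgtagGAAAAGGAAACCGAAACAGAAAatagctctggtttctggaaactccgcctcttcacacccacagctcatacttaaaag
B2m: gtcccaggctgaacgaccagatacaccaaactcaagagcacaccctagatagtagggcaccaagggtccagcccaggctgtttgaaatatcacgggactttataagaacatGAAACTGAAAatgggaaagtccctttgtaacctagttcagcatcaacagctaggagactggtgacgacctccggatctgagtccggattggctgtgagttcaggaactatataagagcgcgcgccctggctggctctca
Irf1: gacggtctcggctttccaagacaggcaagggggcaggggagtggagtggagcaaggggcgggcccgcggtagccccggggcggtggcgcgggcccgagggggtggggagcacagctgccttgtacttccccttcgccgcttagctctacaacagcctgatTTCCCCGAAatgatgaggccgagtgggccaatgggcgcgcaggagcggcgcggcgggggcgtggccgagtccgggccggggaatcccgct

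The libraries held 1570684 to 2016178 counts each, and 15506 to 17061 genes had at least 1 count. Levels are given as CPM, counts relative to library size scaled by edgeR's TMM factors. Counts were low for many of these genes, which limits precision: Ddx58, for example, had 13 to 57 counts per library. Stim1 and Stim2 were lower in every KO library than in every control library at the same temperature. Stim1 did not pass at RT (-0.90, adjusted p = 0.349) or in the cold (-0.45, adjusted p = 0.057). Stim2 did not pass at RT (-0.59) and passed in the cold (-0.88, adjusted p = 0.0382). That call was lost without any one of several libraries (adjusted p up to 0.105). A 3′ tag need not lie in the deleted part. Ucp1, the heat-producing uncoupling protein of brown fat, rose in the cold by 1.31 ± 0.15 on the log2 scale (SE) in control and by 1.06 ± 0.13 in KO. One library stood apart in lymphocyte markers. In control RT replicate 2 the summed level of 14 lymphocyte markers was 36.8 CPM against 8.28 in control RT replicate 1 and 2.61 to 10.7 in the other 11 libraries, and Ptprc, the pan-leukocyte CD45 gene, was at 47.0 CPM against 11 in replicate 1. Many of the results that rest on control RT replicate 2 are given with and without it. Control cold 2 was also unusual: its 16 macrophage markers summed to 379 CPM, against 154 to 261 in the other control cold libraries. It had the highest fibroblast marker sum of its group, 1404 CPM, and the lowest endothelial sum, 853 CPM.

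Of the 35 genes, 8 had too few counts to be tested: Ifit2, Irf7, Usp18, Oasl2, Oas1a, Mx1, Dhx58 and Zbp1. Their totals over all 13 libraries ran from 10 counts for Oas1a, which only just met the minimum, and 13 for Mx1 to 70 for Irf7. Irf7 is the transcription factor that amplifies type I interferon production, and Mx1 and Oas1a are antiviral effectors that respond strongly to interferon. Over the control RT, KO RT, control cold and KO cold libraries Ifit2, the largest of the effectors among them, had 10, 12, 28 and 18 counts, and Irf7 had 20, 23, 12 and 15, too few to read a change. The remaining 27 genes ranged from Ifit3 at 0 to 15 counts per library to Ifi27 at 1679 to 3395.

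In control mice, cold lowered interferon-stimulated genes broadly: 20 of the 27 tested genes fell and none rose. The falls covered cytosolic RNA sensors, antiviral effectors, the factors Irf1 and Irf9, ADP-ribosyltransferases and antigen presentation genes. Tap1, the peptide transporter for class I presentation, fell the most, from a mean of 18.1 to 3.48 CPM. Of all tested genes, 12.6% were called lower and 25.2% in either direction (edgeR quasi-likelihood test, Benjamini-Hochberg adjusted p under 0.05). The median log2 change of the 27 genes was -1.09, against -0.02 over all tested genes, and 26 of 27 were negative against 51.1% of all. In 23 of 27 genes every cold library lay below every RT library, which held for 20.6% of all genes. In bulk tissue, fewer cells of a type and less RNA per cell cannot be told apart. Of the 20 calls, 11 held when each library was left out in turn and under every other setting tried: Ddx58, Irf1, Tap1, Rsad2, Rtp4, Lgals3bp, Parp9, Ifitm3, Ifi35, Parp14 and Eif2ak2. DESeq2 called 14 of 32 and 8.07% of all genes lower. Without the filter on low counts, edgeR called 17 of 35 and 8.84% of all genes lower. Without control cold 2 the count was 14 of 27 with a median of -1.18, and 11.3% of all genes were called lower. Without control RT replicate 2 the count was 13 of 28 with a median of -1.01, and 10.6% of all genes were called lower. Without control RT replicate 1 it was 16 of 29 with a median of -1.16, and 4.66% of all genes were called lower.

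The sensors lie at the head of the pathway. Ddx58 (chromosome 4) encodes RIG-I, which detects viral RNA ends. Its level was 26.2 and 30.7 CPM in the control RT libraries and 8.06, 10.5, 8.05 and 10.6 in the control cold libraries. The cold libraries were all far below the RT libraries and close to each other, and the change was -1.61 ± 0.21 (adjusted p = 7.84e-05). Ifih1 (chromosome 2) encodes MDA5, the sensor of long double-stranded RNA. It was at 15.2 and 16.9 CPM at RT and at 4.61, 6.80, 10.5 and 9.88 in the cold. The groups did not overlap and the change was -1.01 ± 0.35 (adjusted p = 0.0425). Leaving out any one of 7 libraries ended that call (both control RT, control cold 1 and 2, KO RT 3 and KO cold 1 and 2), with an adjusted p of up to 0.144.

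Among the transcription factors, Irf1 (chromosome 11), an activator of antigen presentation genes, had 88.7 and 64.5 CPM in the RT libraries against 31.7, 28.4, 39.0 and 38.1 in the cold ones. All 4 cold libraries lay below both RT libraries, a change of -1.17 ± 0.19 (adjusted p = 0.000351). Irf9, the DNA-binding partner of Stat2, stood at 31.7 and 30.1 CPM at RT and at 11.5, 13.6, 16.7 and 21.9 in the cold. The groups were separate, and the change of -0.97 ± 0.26 had an adjusted p of 0.0126, or 0.0938 without control RT replicate 1. Stat2 did not pass at -1.09 ± 0.40 (adjusted p = 0.0584). Its cold libraries, at 5.76, 2.47, 12.4 and 7.76 CPM, were spread widely, and the highest lay just under the lower RT library, with the RT libraries at 12.4 and 18.1.

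Of the 12 antiviral effectors, 8 were tested and 5 fell. Rsad2 (chromosome 12) encodes viperin, a radical enzyme that makes a chain-terminating nucleotide. It was at 123 and 83.2 CPM at RT and at 31.7, 19.2, 31.6 and 52.9 in the cold. The highest cold library was well below the lower RT library, and the change was -1.63 ± 0.28 (adjusted p = 0.00071). Ifitm3 (chromosome 7), a membrane protein that blocks virus entry, had 64.8 and 83.2 CPM in the RT libraries. The cold libraries had 41.5, 40.8, 34.7 and 48.7, again below both, with a change of -0.83 ± 0.16 (adjusted p = 0.00182). Eif2ak2 (chromosome 17) encodes PKR, the RNA-activated kinase that stops translation. Its 17.0 and 23.5 CPM at RT stood against 4.03, 11.7, 4.96 and 8.47 in the cold. The cold libraries were uneven but all lower, by -1.46 ± 0.32 (adjusted p = 0.00382).

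Rtp4 (chromosome 16), a chaperone of membrane receptors, was at 26.2 and 26.5 CPM at RT and at 8.64, 9.27, 8.05 and 15.5 in the cold. Even the highest cold library was far below RT, and the change was -1.36 ± 0.25 (adjusted p = 0.00108). Ifit1 (chromosome 19), which binds RNA that lacks host cap marks, was at 10.6 and 16.9 CPM at RT and at 4.03, 3.09, 4.34 and 7.06 in the cold. The groups were separate and the change was -1.55 ± 0.49 (adjusted p = 0.0286). Leaving out either control RT library or control cold 1 or 2 ended the call, with an adjusted p of up to 0.180. Ifit3, Bst2 and Samhd1 were negative without passing. Ifit3, whose reads may be shared with the near-identical Ifit3b, changed by -1.43 ± 0.60 (adjusted p = 0.0917). Bst2 (tetherin, which holds budding viruses at the membrane) changed by -0.84 ± 0.31 (adjusted p = 0.0583). Its control RT libraries were at 19.3 and 35.0 CPM, against 11.1 to 19.1 in control cold. With 1 library left out the Bst2 change ran from -1.23 to -0.36. Samhd1, which hydrolyses the nucleotides that viruses copy with, changed by -0.58 ± 0.22 (adjusted p = 0.058).

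The ISG15 and TRIM genes act through ubiquitin-like tags. Isg15 itself (chromosome 4), the ubiquitin-like modifier, was at 11.5 and 18.1 CPM at RT and at 8.06, 9.89, 11.2 and 15.5 in the cold. The groups overlapped and the change of -0.40 ± 0.29 did not pass (adjusted p = 0.336). Trim25, the ubiquitin ligase that activates RIG-I, fell from 55.6 and 72.9 CPM to 50.7, 27.8, 42.1 and 38.8, a change of -0.68 ± 0.19 (adjusted p = 0.0178, or 0.186 without control RT replicate 2). Trim30a, which may share reads with its neighbour Trim30d, passed narrowly at -0.70 ± 0.25 (adjusted p = 0.0489). The call ended when any one of 9 libraries was left out (control RT 2, control cold 1 to 3, all 3 KO RT, KO cold 1 and 3), with an adjusted p of up to 0.389.

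All 3 genes of ADP-ribosylation and nuclear bodies fell. Parp14 (chromosome 16), an ADP-ribosyltransferase, was at 23.9 and 25.3 CPM at RT and at 7.49, 8.03, 14.2 and 7.06 in the cold. Control cold 3 stood above the other 3 cold libraries and below both RT libraries, and the change was -1.41 ± 0.29 (adjusted p = 0.00256). Parp9, a related protein on the same chromosome, was at 17.5 and 22.9 CPM at RT and at 8.06, 6.80, 11.2 and 6.35 in the cold, with no overlap. Its change was -1.29 ± 0.25 (adjusted p = 0.00157). Sp100, a component of PML nuclear bodies, went from 33.6 and 24.1 CPM to 19.0, 7.41, 14.9 and 22.6. The nearest libraries, at 24.1 and 22.6 CPM, were close, and the change of -0.87 ± 0.28 (adjusted p = 0.0326) was lost without control RT 1 or control cold 2 or 3, with an adjusted p of up to 0.324.

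Among the 6 other induced genes 4 fell. Lgals3bp (chromosome 11), a secreted galectin-binding glycoprotein, was at 37.2 and 40.4 CPM at RT and at 17.3, 21.6, 12.4 and 21.2 in the cold. The groups were well apart, by -1.10 ± 0.20 (adjusted p = 0.0012). Ifi35 (chromosome 11), an interferon-induced leucine zipper protein, was at 12.0 and 12.7 CPM at RT and at 2.30, 3.09, 2.48 and 4.94 in the cold. Every cold library lay below both RT libraries, a change of -1.94 ± 0.40 (adjusted p = 0.00251). Ifi27l2a, a small membrane protein gene on chromosome 12, changed by -0.87 ± 0.25 (adjusted p = 0.0198), but its cold libraries, at 92.7, 167, 87.3 and 75.5 CPM, overlapped the 163 and 224 CPM at RT. That call was lost without control RT 2 (adjusted p = 0.183) or control cold 1. Ifi44, an interferon-induced gene at the edge of detection, fell by 1.84 on the log2 scale (SE 0.58, adjusted p = 0.0296), from 5.06 and 6.63 CPM to 2.30, 0.618, 2.48 and 0.706. Its call was lost without either control RT library or control cold 2 or 4, with an adjusted p of up to 0.127. The relative of Ifi27l2a, Ifi27, with the most counts of the 27 genes, was at 1561 and 1343 CPM at RT and at 1336, 1758, 1722 and 1185 in the cold. The groups overlapped fully, with a change of 0.05 ± 0.16 (adjusted p = 0.858). Xaf1, which binds an inhibitor of apoptosis, did not pass at -0.96 ± 0.42 (adjusted p = 0.107).

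Antigen presentation was represented by Tap1 and B2m. Tap1 (chromosome 17) was at 19.3 and 16.9 CPM at RT and at 2.88, 4.32, 2.48 and 4.24 in the cold, a 5.20-fold lower mean. The ranges were widely apart, and the change was -2.37 ± 0.38 (adjusted p = 0.000389). B2m, the light chain of class I molecules, was at 722 and 1291 CPM at RT and at 716, 767, 581 and 810.4 in the cold. Only control RT replicate 2 stood above the cold libraries. The change of -0.49 ± 0.17 passed narrowly (adjusted p = 0.0496), the call was lost without any one of 11 libraries (all but control RT 1 and control cold 4), and without control RT replicate 2 the value was 0.0067 (adjusted p = 0.983).

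**Figure D1:**
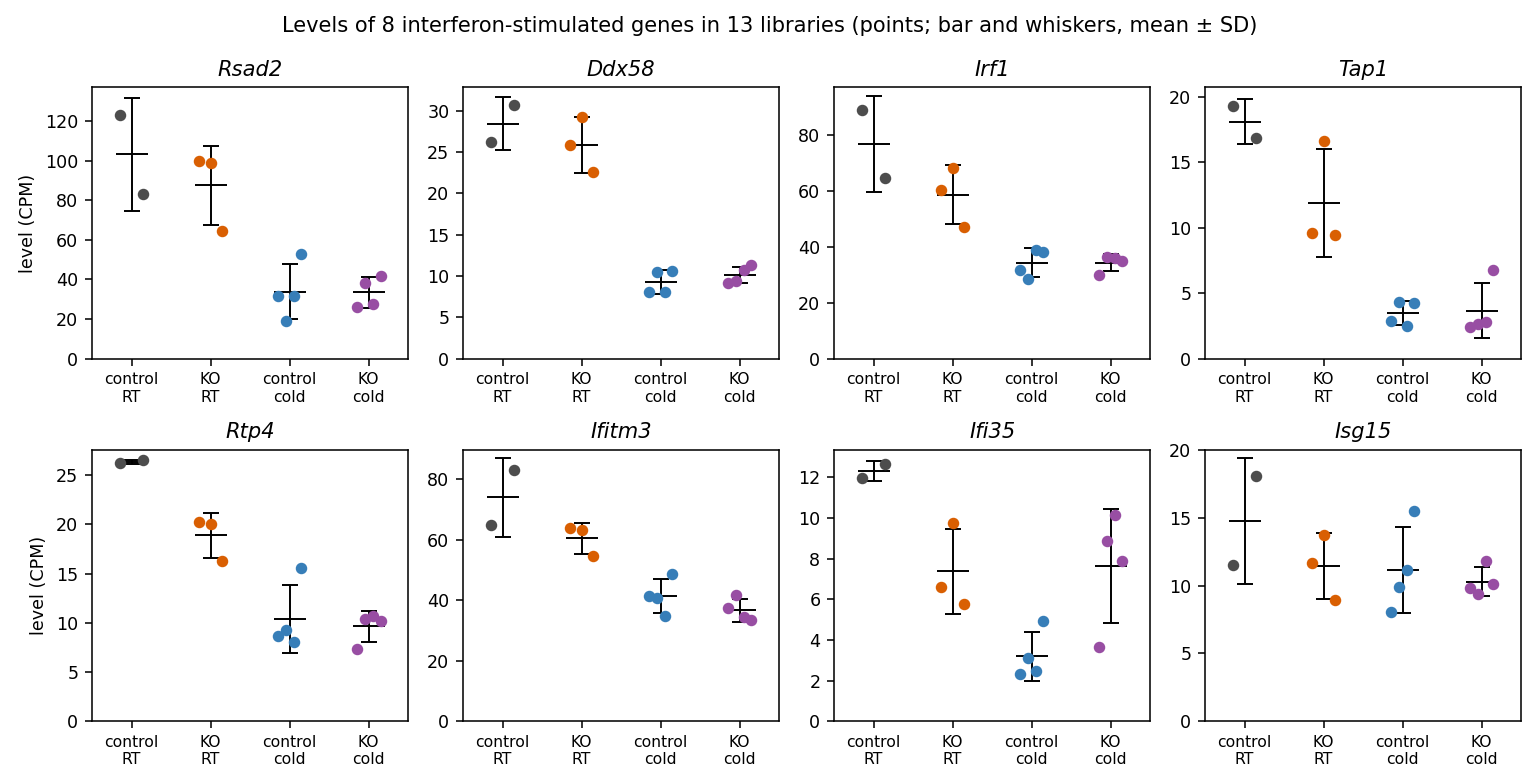
Level in CPM (y axis) of 8 interferon-stimulated genes in each of the 13 libraries, 1 panel a gene, points by group with the group mean and SD. In Rsad2, Ddx58, Irf1, Tap1, Rtp4 and Ifitm3 the cold libraries of each genotype lie below its RT libraries; Ifi35 is lowest in control cold, and the Isg15 groups overlap.

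In KO mice, cold lowered 8 of the 27 genes and raised none: Ddx58, Rsad2, Ifitm3, Tap1, Irf1, Rtp4, Parp14 and Parp9. Sensor, effector, transcription factor and antigen presentation genes were again among them, while none of the 3 tested ISG15 and TRIM genes passed. Of all tested genes, 9.45% were called lower, 9.43% higher and 18.9% in either direction. The median change of the 27 genes was -0.54 against -0.01 for all genes, and 26 were negative against 50.9% of all. In 13 genes every cold library was below every RT library, against 16.4% of all genes. DESeq2 called 7 of 32 and 6.08% of all genes lower.

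Ddx58 was at 25.8, 29.3 and 22.6 CPM in the KO RT libraries and at 9.18, 9.39, 10.7 and 11.3 in the KO cold libraries. The 2 groups were clearly apart, with a change of -1.34 ± 0.19 (adjusted p = 0.000184). Rsad2 was at 99.8, 98.7 and 64.6 CPM at RT and at 26.3, 38.1, 27.6 and 41.8 in the cold. KO RT 3 was the lowest RT library and still above every cold library, and the change was -1.38 ± 0.26 (adjusted p = 0.00139). Tap1, at 9.62, 16.6 and 9.45 CPM at RT, was at 2.45, 2.61, 2.81 and 6.77 in the cold. KO cold 4 lay apart from the other cold libraries but below RT, and the change was -1.67 ± 0.36 (adjusted p = 0.00391).

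Irf1 was at 60.3, 68.3 and 47.2 CPM at RT and at 30.0, 36.5, 36.0 and 35.0 in the cold. The cold values were tight and all lower, by -0.76 ± 0.17 (adjusted p = 0.00474). Ifitm3 was at 63.8, 63.1 and 54.6 CPM at RT and at 37.3, 41.7, 34.3 and 33.3 in the cold. The groups were separate, with a change of -0.72 ± 0.15 (adjusted p = 0.00313). Rtp4 was at 20.3, 20.1 and 16.3 CPM at RT and at 7.34, 10.4, 10.7 and 10.2 in the cold. It too had no overlap, at -0.95 ± 0.23 (adjusted p = 0.00877).

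These 6 calls held under every alternative. The ADP-ribosyltransferases rested on fewer libraries. Parp14, at 22.3, 31.0 and 16.3 CPM at RT and 12.2, 13, 10.7 and 9.59 in the cold, changed by -1.01 ± 0.26 (adjusted p = 0.0109, or 0.0781 without KO RT 2). Parp9, at 18.2, 21.8 and 16.8 CPM at RT and 11, 12.0, 10.7 and 11.3 in the cold, changed by -0.74 ± 0.21 (adjusted p = 0.0225). Leaving out KO RT 1 or 2 or KO cold 1 or 3 ended the Parp9 call, with an adjusted p of up to 0.102, and DESeq2 gave 0.0955. Ifit3 had the lowest estimate in KO, -1.73 ± 0.66, and did not pass (adjusted p = 0.0794); its KO cold libraries held 0, 0.522, 1.69 and 2.26 CPM.

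**Figure D2:**
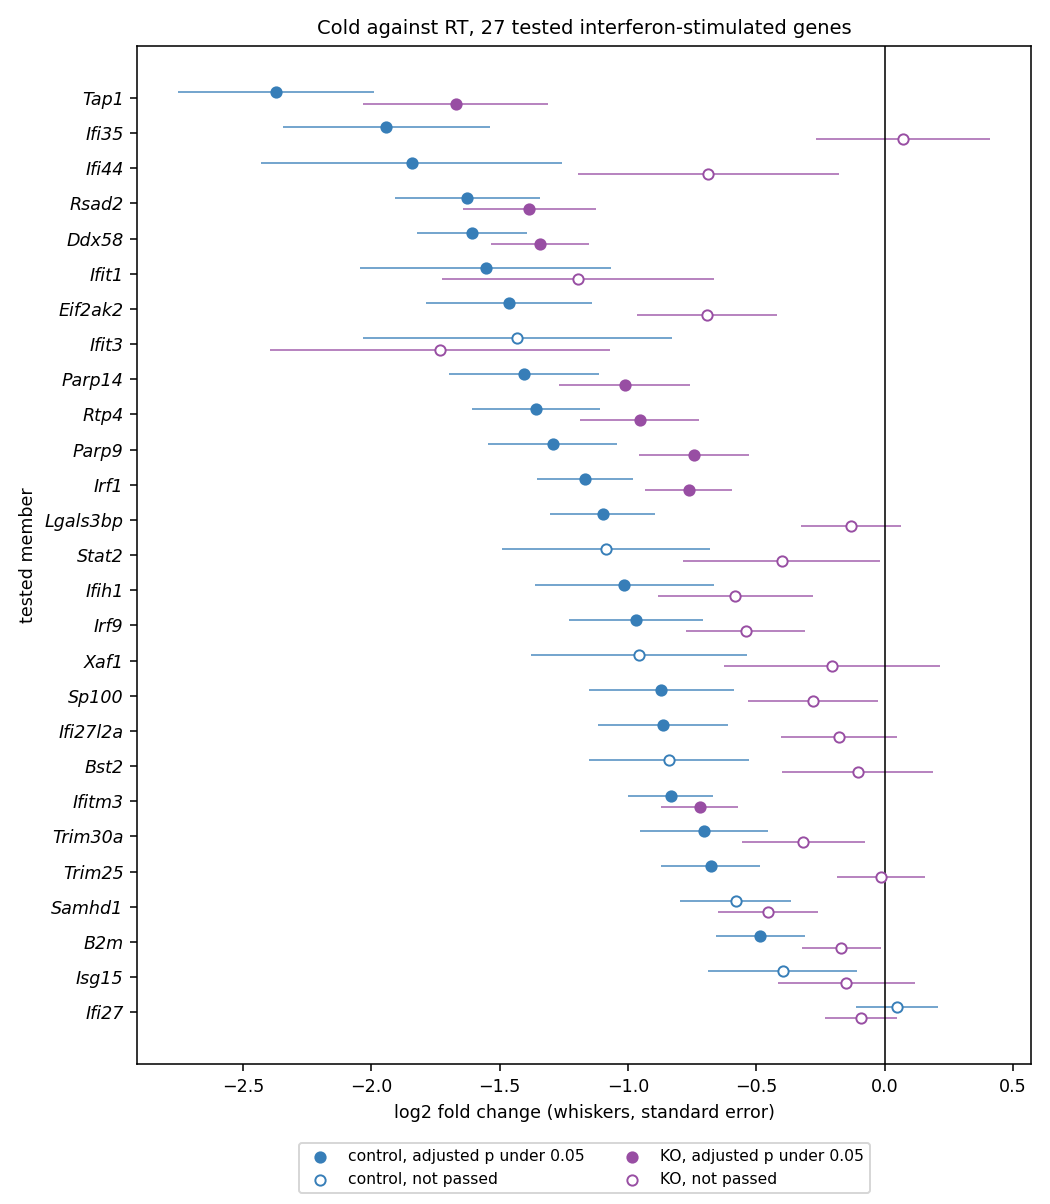
Log2 fold change of cold against RT (x axis, whiskers SE) for the 27 tested genes (y axis), in control (blue) and KO (purple), filled where the adjusted p is under 0.05. The blue points run from -2.37 for Tap1 to 0.05 for Ifi27, with 20 filled; 8 purple points are filled, and the purple point lies to the right of the blue one for 25 genes.

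The 8 genes called in KO were all among the 20 called in control. The matching overlap over all tested genes was not counted, so this one is not read as particular to these genes. That 12 genes passed in control only does not show that the genotypes differ, so the difference of the 2 cold responses was tested in its own right. None of the 27 genes passed (edgeR), as against 0.0181% of all genes, which is 2 genes. At an unadjusted p under 0.05 there were 3 of the 27 and 8.25% of all, and DESeq2 called 0 of the 24 it gave an adjusted p (0.0857% of all genes positive and 0.19% negative). The estimate was positive, a smaller fall in KO, in 25 of 27 genes against 50.3% of all, with a median of 0.43. Without control RT replicate 2 it was positive in 21 of 28 genes (median 0.38), and without replicate 1 in 25 of 29 (median 0.61). The smallest p belonged to Ifi35, at 2.01 ± 0.53 (adjusted p = 0.282). In KO it was at 6.58, 9.75 and 5.77 CPM at RT and at 3.67, 8.87, 10.1 and 7.90 in the cold, fully overlapping, while in control it had fallen. Lgals3bp followed at 0.97 ± 0.28 (adjusted p = 0.318), then Trim25 at 0.66 ± 0.26 (adjusted p = 0.517) and Ifi27l2a at 0.69 ± 0.34 (adjusted p = 0.618). Since all 4 groups enter this difference, its values are not independent of those of either cold comparison.

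At RT, KO tissue had somewhat lower estimates than control tissue for most interferon-stimulated genes, but no gene passed the test. The count was 0 of 27 (edgeR), as it was over the whole table (0%), and DESeq2 called 0 of the 35 (0.00638% of all genes higher and 0.0128% lower). At an unadjusted p under 0.05 there were 4 of the 27 and 3.12% of all genes. The estimates were negative in 26 of 27 genes against 49.9% of all, with a median of -0.35, and 11 genes lay wholly below control against 7.96% of all. Lgals3bp had the smallest p, with 21.8, 23 and 18.9 CPM in KO against 37.2 and 40.4 in control. The libraries were well separated, by -0.87 ± 0.21, and did not pass over the table (adjusted p = 0.793). Trim30a (-0.66 ± 0.26), Bst2 (-0.73 ± 0.32) and Ifit1 (-1.11 ± 0.49) followed, each with an adjusted p of 1. With 1 library left out the Bst2 change ran from -1.13 to -0.26. The direction depended in part on 1 library: without control RT replicate 2, 22 of 28 estimates were negative with a median of -0.27. KO RT 3, the lowest of its group in 23 of 27 genes, moved the median to -0.22 when left out, with 25 of 27 negative. This comparison uses the same control RT libraries as the cold comparison in control.

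In the cold, the estimates between genotypes lay near 0 for many of these genes, with Ifi35 the farthest from it. None of the 27 passed (edgeR), whereas 5.93% of all tested genes did, 2.44% higher and 3.49% lower in KO. DESeq2 called 0 of 24, and 2.42% of all genes higher and 4.1% lower. At an unadjusted p under 0.05 there were 4 of 27 against 20.1% of all. The estimates fell on both sides, 15 positive and 12 negative (49.4% of all genes were positive), with a median of 0.07. No gene had separate groups, against 6.28% of all genes wholly above control and 6.53% wholly below. Ifi35 came closest. Its 2.30 to 4.94 CPM in control and 3.67 to 10.1 in KO overlapped in 1 library on each side, and the change was 1.27 ± 0.37 (adjusted p = 0.0538). It passed without KO cold 1 or control cold 4 (lowest adjusted p 0.0244). Ifi27l2a, at 0.49 ± 0.22 (adjusted p = 0.213), passed without control cold 2 (adjusted p = 0.0175). Trim25 was at 0.40 ± 0.17 (adjusted p = 0.175) and Eif2ak2 at 0.65 ± 0.30 (adjusted p = 0.233). A value that missed the threshold does not show equal levels.

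**Figure D3:**
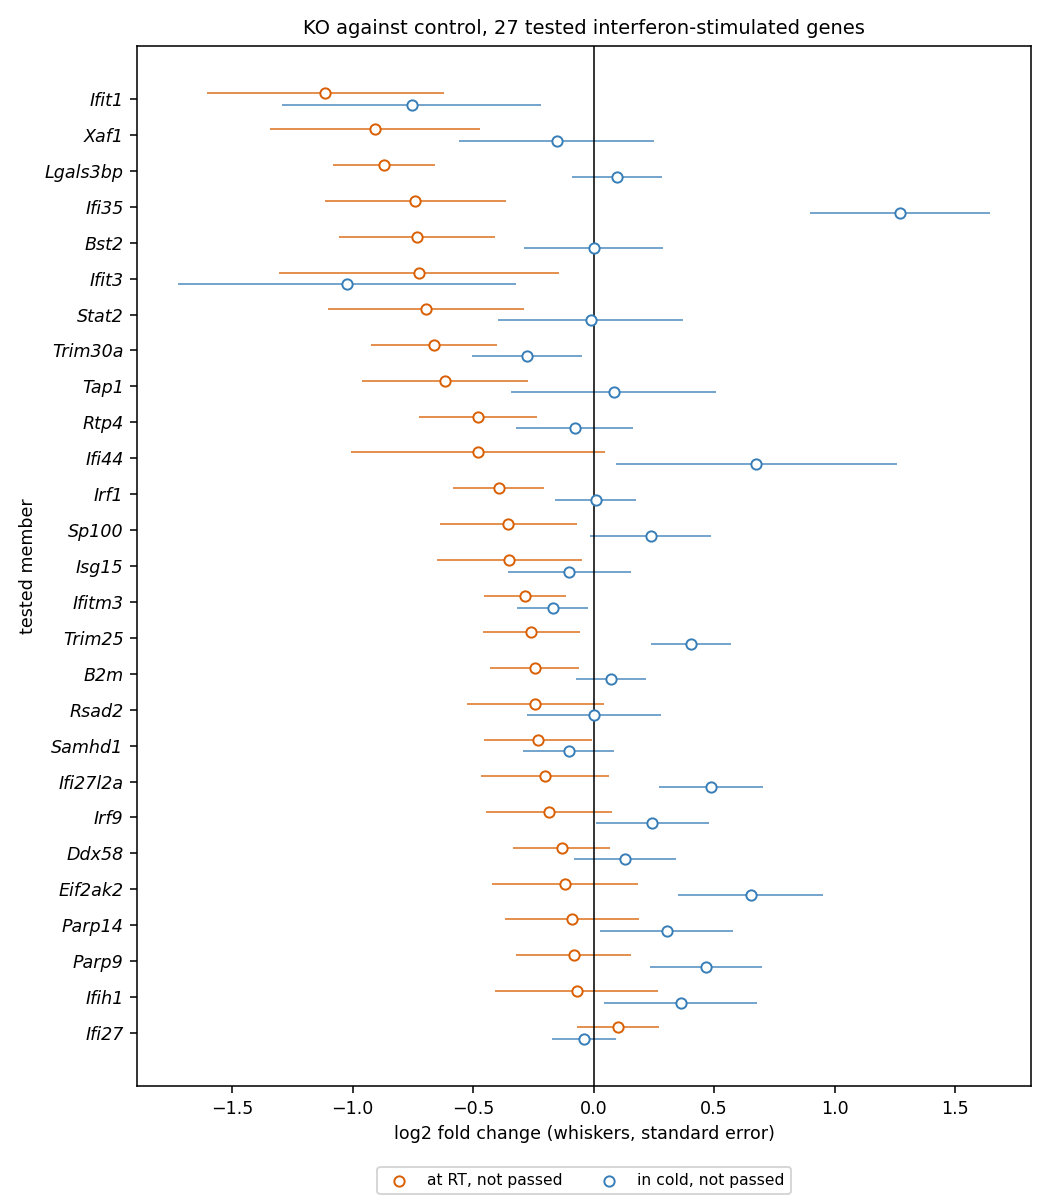
Log2 fold change of KO against control (x axis, whiskers SE) for the 27 tested genes (y axis), at RT (orange) and in the cold (blue), all open because none passed. At RT 26 of 27 points lie below 0; in the cold 15 lie above 0, with Ifi35 at 1.27 the farthest.

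Library by library, the 27 genes were higher at RT. Taking each gene's log2 CPM relative to its own mean over the 13 libraries, the median over the genes was 0.60 and 0.81 in the control RT libraries and 0.39, 0.46 and 0.03 in the KO RT libraries. It was -0.41, -0.48, -0.36 and -0.05 in control cold and -0.30, -0.09, -0.21 and -0.21 in KO cold. Every RT library was thus above every cold library, KO RT 3 was the nearest to the cold libraries and control cold 4 was the highest of the control cold group. Over all tested genes the same medians lay between -0.01 and 0.02.

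**Figure D4:**
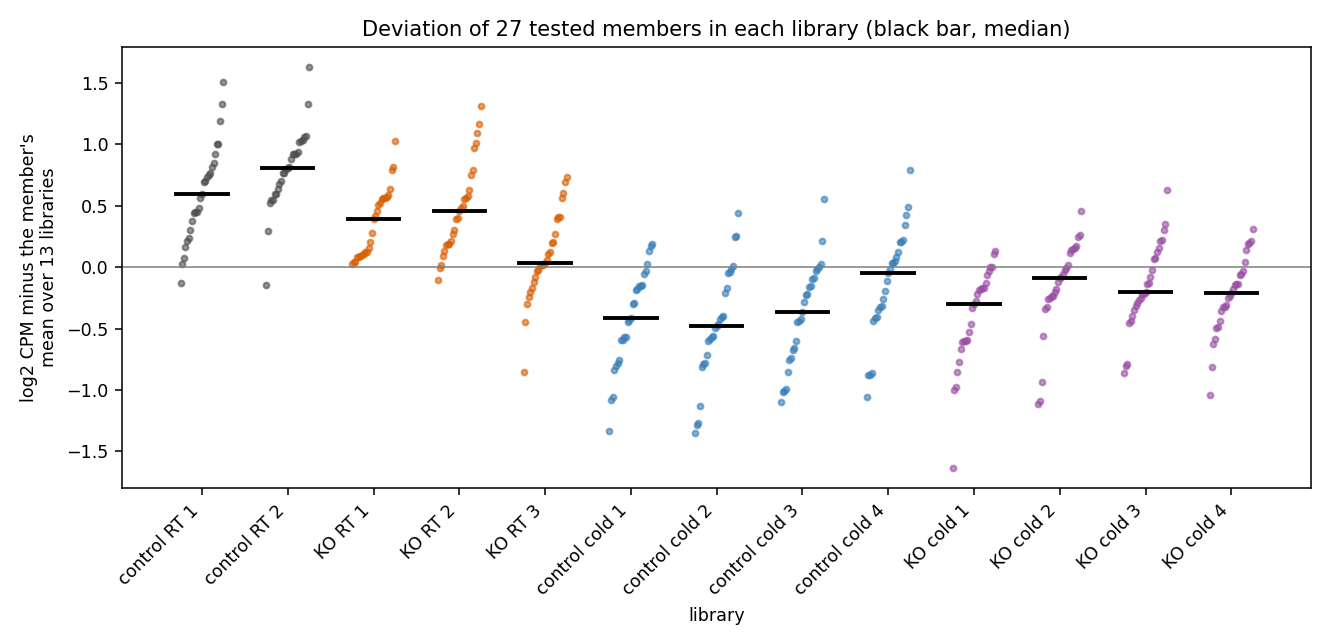
Deviation of each of the 27 genes from its mean (y axis, log2 CPM) in each library (x axis), with the median as a black bar. The bars stand at 0.60 and 0.81 in control RT and below 0 in all 8 cold libraries; KO RT 3, at 0.03, is the lowest RT library.

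The genes that fell included both kinds of promoter, with GAAA-NN-GAAA in the 250 bases and without it. In control, 4 of 8 tested genes with the letters fell (median -0.96) and 12 of 14 without them did (median -1.06), as did 4 of 5 genes with no entry. In KO the counts were 1 of 8, 4 of 14 and 3 of 5. Of all tested genes, 12.6% were called lower in control and 9.45% in KO, so the 1 of 8 lies near that share. Isg15 and Rsad2, whose sequences are given above, both hold the letters; Rsad2 fell in both genotypes and Isg15 passed in neither.

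The surrounding interferon pathway was read from lists named by function. Beside the counts for these lists, 12.6% of all tested genes were called lower in control cold and 12.7% higher. In KO cold the shares were 9.45% and 9.43%. Of 20 interferon ligand genes, 19 had no count in any library and the other had 1 count in all. A count of 0 allows up to 3 counts in a library, so ligand transcripts were not detectable at this depth. Of 10 tested receptors and kinases, 3 fell in control cold and none rose: Il10rb, a receptor subunit used by interferon lambda (-1.40 ± 0.24, adjusted p = 0.000639), Ifnar2, a chain of the type I receptor (-0.65 ± 0.19, adjusted p = 0.0186), and the kinase Jak2 (-0.89 ± 0.31, adjusted p = 0.0483). With each library left out in turn, 1 of the 3 calls held, that of Il10rb. Ifnar2 was lost without either control RT library (adjusted p up to 0.101), and Jak2 without any one of 10 libraries, all but control cold 4 and KO cold 2 and 4 (up to 0.300), and with DESeq2 (0.085). In KO Il10rb fell by 0.88 on the log2 scale and Ifngr1, a chain of the type II receptor, rose by 0.78. Of 13 tested upstream adaptors and kinases, Tank (1.06), Tbk1 (0.78) and Azi2 (0.55), which encode a kinase of interferon production (Tbk1) and its scaffolds, rose in control cold, while Tlr3 (-1.26) and Nlrx1 (-1.61) fell. All but the Tank call were lost without control RT 1, with an adjusted p of up to 0.320, and that of Azi2 also without control RT 2. In KO Tlr3 (-1.32), a sensor of double-stranded RNA, fell and Ticam1 (0.91), its adaptor, rose, the latter not without KO RT 1 or 2 (adjusted p up to 0.0731). Among 8 tested negative regulators, Cish fell in both genotypes (-2.38 in control and -2.69 in KO) and Irf2bp2 rose in both (1.40 and 1.25). In control the Cish change was -1.34 without control RT replicate 2 (adjusted p = 0.209), DESeq2 gave it an adjusted p of 0.0625, and the Irf2bp2 call was lost without control RT 1 (adjusted p = 0.123). Ptpn11 (0.48) and Irf2 (-0.57) were called in control and not in KO, and the differences between genotypes did not pass. The Ptpn11 call was lost without control RT 1 (adjusted p = 0.127), and the Irf2 call without either control RT library or control cold 2 or 3 (up to 0.263) and with DESeq2 (0.0776).

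Targets of type II interferon and genes of class I presentation fell alongside. Of 15 tested type II targets, 10 fell in control cold and none rose, with a median of -2.01. They were the GTPases Gbp3 (-2.03), Gbp4 (-2.35), Gbp5 (-2.17), Gbp7 (-1.48), Gbp9 (-1.78), Igtp (-2.30), Irgm2 (-2.01) and Iigp1 (-2.08), the T-cell chemokine Cxcl9 (-2.05) and Ciita (-2.98), the master activator of class II genes. Gbp3 was at 30.3 and 28.9 CPM at RT and at 5.76, 8.65, 6.81 and 7.76 in the cold, which left a wide gap. Cxcl9, by contrast, was at 13.3 and 51.8 CPM at RT and at 13.8, 5.56, 6.19 and 4.24 in the cold, so the RT mean rests on control RT replicate 2. In KO 6 fell with a median of -1.20: Gbp3 (-1.64), Gbp7 (-1.20), Gbp9 (-1.93), Igtp (-1.97), Irgm2 (-1.17) and Ifi47 (-1.52). When each library was left out in turn, 5 of the 10 control calls and 4 of the 6 KO calls held. In control Iigp1, Cxcl9 and Ciita were lost without control RT 2 (Cxcl9 at -0.79 and an adjusted p of 0.336), and Gbp5 and Gbp9 without control RT 1 (up to 0.128). In KO Gbp9 and Ifi47 were lost without any one of several libraries, KO RT 2 and 3 among them (up to 0.212).

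Of 18 tested genes of class I molecules and the immunoproteasome, the proteasome form that cuts peptides for presentation, 13 fell in control cold and 1 rose, with a median of -0.85. The fallers were the class I heavy chains H2-K1 (-0.61), H2-D1 (-0.58), H2-Q4 (-1.39) and H2-T22 (-0.95), the peptide loading genes Tap2 (-1.90), Tapbp (-0.87) and Tapbpl (-1.91), the proteasome genes Psmb8 (-1.54), Psmb9 (-1.41), Psmb10 (-0.92), Psme1 (-0.82) and Psme2 (-0.77), and the class I activator Nlrc5 (-1.64). Tap2 was at 95.2 and 88.6 CPM at RT and at 26.5, 30.3, 19.8 and 21.2 in the cold, well apart. Reads of the similar H2 genes may be split between copies. In KO 8 fell, H2-T22 (-0.81), Tap2 (-1.16), Tapbp (-0.72), Tapbpl (-0.95), Psmb8 (-0.89), Psmb9 (-1.82), Psme1 (-0.43) and Psme2 (-0.41). The risers were the endoplasmic reticulum chaperones of the list, Canx in control (0.59) and Canx (0.70), Calr (1.15) and Pdia3 (0.95) in KO. Calr and Pdia3 were also the only 2 of the 18 called between genotypes in the cold, higher in KO by 1.07 ± 0.13 (adjusted p = 0.00014) and 0.79 ± 0.22 (adjusted p = 0.0383). With each library left out in turn, 7 of the 13 falls in control and 4 of the 8 in KO held. In control H2-K1, H2-D1, H2-T22, Psmb10 and Nlrc5 were lost without control RT 2 (adjusted p up to 0.323), and Tapbp and Canx without control RT 1 (up to 0.0675). In KO H2-T22, Psmb8, Psme1 and Pdia3 were lost without KO RT 1 and Psme2 without KO RT 2 (up to 0.138). The Pdia3 call between genotypes was lost without any one of 6 cold libraries (up to 0.111).

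Of 32 further type I targets tested, 13 fell and 3 rose in control cold, with a median of -0.68. Ifit3b (-2.60), Trim21 (-2.32), Parp10 (-1.57), Phf11d (-1.47), Trim12c (-1.42), Cmpk2 (-1.42), Tdrd7 (-1.32), Ifi203 (-1.27), Parp12 (-1.16), Pml (-1.13), Mndal (-0.98), Trim12a (-0.88) and Dtx3l (-0.85) fell. Cmpk2, a nucleotide kinase, lies beside Rsad2, and Dtx3l is the partner ligase of Parp9. Ifi205 (1.63), Ifi207 (1.46) and Helz2 (0.69) rose. In KO 6 fell, Ifi203 (-1.05), Mndal (-0.70), Trim12c (-0.83), Trim21 (-1.22), Parp12 (-0.64) and Tdrd7 (-0.91), and Ifi205 (1.47), Helz2 (0.69) and Isg20 (1.28) rose. Of these calls, 6 of 13 falls in control and 1 of 6 in KO, Ifi203, held with each library left out, and none of the rises did. Each lost call in control was lost without control RT 1 (adjusted p up to 0.419). In KO, KO RT 1 or 2 ended each lost call (up to 0.220). The Ifi200 family genes Ifi203, Ifi205, Ifi207 and Mndal are similar in sequence and may share reads.

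**Figure D5:**
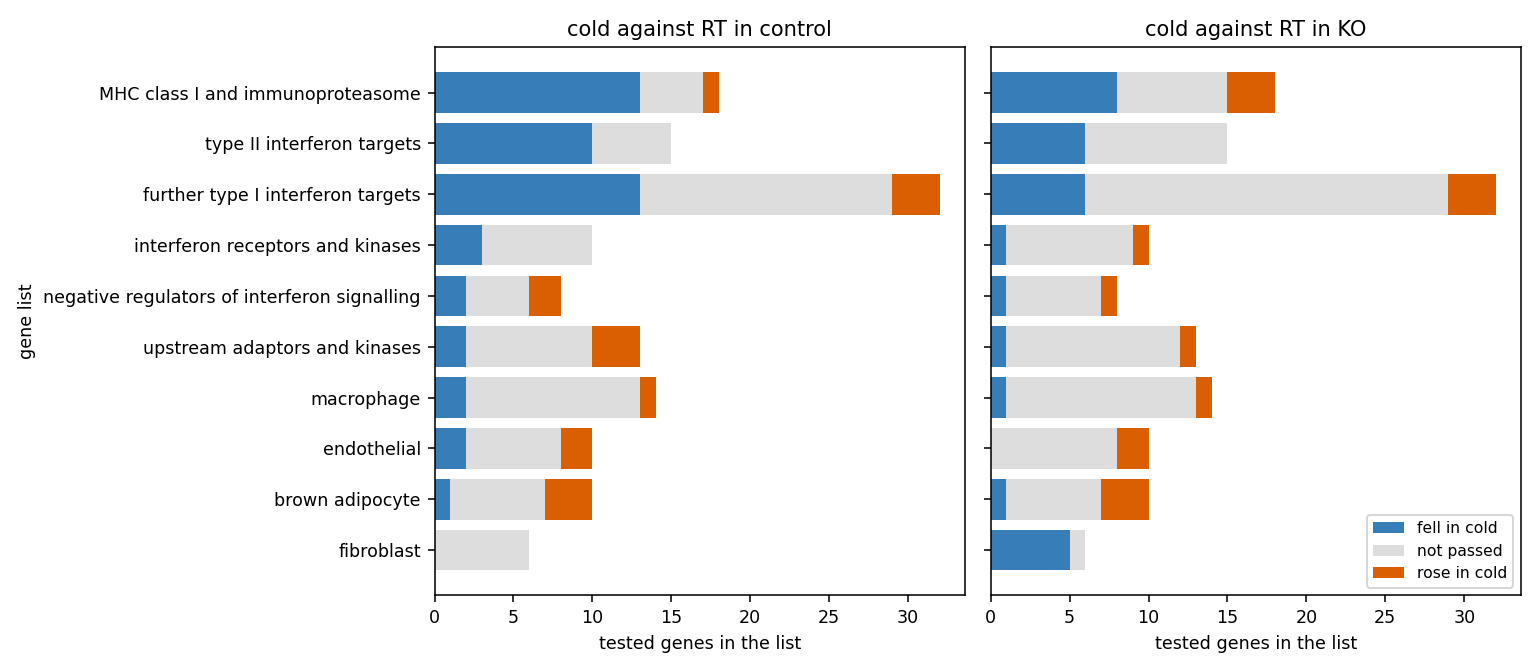
Number of tested genes (x axis) that fell (blue), did not pass (grey) or rose (orange) in the cold, for 6 interferon pathway lists and 4 cell type marker lists (y axis), in control (left) and KO (right). In control the falls are 13 of 18 for class I presentation, 10 of 15 for type II targets and 13 of 32 for further type I targets. For macrophage markers they are 2 of 14, near the 12.6% of all tested genes called lower.

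Markers of other cells of the tissue were read beside these results. Of all tested genes, 12.6% were called lower and 12.7% higher in control cold, and 9.45% and 9.43% in KO cold. The falls of 2 of 14 macrophage markers in control lie near that share. Of 14 tested macrophage markers, 2 fell in control cold, Cx3cr1 (-3.01 ± 0.58, adjusted p = 0.00152) and Ptprc (-1.77 ± 0.46, adjusted p = 0.00973), and 1 rose, the scavenger receptor Cd163 (1.22 ± 0.31, adjusted p = 0.00969). The Ptprc groups overlapped, and without control RT replicate 2 its change was -0.41 (adjusted p = 0.564). The Cd163 call was lost without either control RT library, with an adjusted p of up to 0.0615. In KO Cx3cr1 fell (-3.09) and Cd163 rose (1.67). The summed level of the 16 listed macrophage markers was 217 to 329.6 CPM in control RT, 172 to 231 in KO RT, 154 to 379 in control cold and 153 to 195 in KO cold, so the ranges overlapped between temperatures. Of 10 endothelial markers, 2 rose (Pecam1 at 0.83 and Esam at 0.65) and 2 fell (Tie1 at -1.10 and Emcn at -0.67) in control cold, and in KO Pecam1 (0.68) and Esam (0.77) rose. None of the 4 calls in control held without control RT 1 (adjusted p up to 0.257), and that of Emcn was also lost without control RT 2 or control cold 2 or 4 and with DESeq2 (0.074). In KO the Esam call was lost without KO RT 1 (0.052). The endothelial sums ran from 1074 to 1132 CPM in control RT and from 853 to 1479.6 in control cold. Of 6 fibroblast markers none passed in control, and 5 fell in KO: Pdgfra (-1.02), Col1a1 (-1.28), Col1a2 (-1.28), Col3a1 (-1.24) and Lum (-1.27). None of the 5 held without KO RT 1, with an adjusted p of up to 0.369.

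Lymphocyte markers were too low to test, with 209 counts over all libraries and Cd79a at 0 in every one. Of 6 plasmacytoid dendritic cell markers, which mark the main interferon-producing leukocyte, 3 were tested and none passed. They were Bst2, itself one of the 27 genes, Irf8 (-0.58 in control, adjusted p = 0.424) and Tcf4 (0.02, adjusted p = 0.948). With 1 library left out the Irf8 change ran from -1.40 to 0.98. Siglech, Ccr9 and Flt3 had 11, 4 and 10 counts over all libraries, so a change in these cells could not be read. Of 10 brown adipocyte markers, Ucp1, Elovl3 and Dio2 rose and Lep fell in the cold in both genotypes (Lep in KO not without KO RT 1, adjusted p = 0.101), and the other 6 did not pass. The part of changing cell numbers in the fall of interferon-stimulated genes was not tested.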

How the data were processed

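RNA from brown adipose tissue was made into QuantSeq 3′ mRNA libraries, per the labels' protocols. The authors deposited raw counts per gene; STAR 2.7.10b, HTSeq 0.12.3, the GRCm39 build, Trim Galore 0.6.7 and UMI-tools 1.1.2 stand in the submitters' processing notes. Whether counting used strand or molecular identifiers is not given in the sources used here. After 275 repeated lines were dropped, 55357 genes remained. All 13 libraries were fitted together with edgeR 4.0.16 (R 4.3.3): filterByExpr with a minimum count of 10, TMM scaling, quasi-likelihood tests of 5 contrasts, two-sided, with p adjusted by Benjamini-Hochberg over all 11073 tested genes. The common biological coefficient of variation was 16.1%. A gene was called at an adjusted p under 0.05, and fold changes are log2 with SE. The procedure was also run on simulated counts that gave every gene the same spread and held no deviant library. That run therefore could not test calls that rest on 1 library.

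Alternatives were RLE scaling, no filter beyond 10 counts in all, DESeq2 1.42.0, only the groups compared, the replicate number as a block, and leaving out each library. Every member was described, with statistics for each that passed, or for the 4 with the smallest p where fewer passed. Related lists give each gene that passed; 1 gene of them is not reported here. Members, lists and tests were chosen with earlier results of these data known. No 2 libraries of a group agreed within sampling noise. All libraries carry the same batch label. Where a control RT library is left out, the other is assumed to vary like the other groups.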

Additional observations from a re-analysis of the deposited data

Results flagged for a closer look

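Each gene was checked in each group of 4 libraries for a single library far from the other 3. Of 54 such groups 6 stood out (11.1%). The cut-off passes about 1 in 20 by chance only for independent values with a normal spread. Low counts of genes read in the same libraries need not meet that, so no excess over chance is claimed. Ifit1 was at 5.63 CPM in KO cold 3, against 1.57 to 1.84 in the other KO cold libraries. Xaf1 was at 5.56 CPM in control cold 2, against 2.82 to 3.10. Rtp4 was at 15.5 CPM in control cold 4, against 8.05 to 9.27, and at 7.34 CPM in KO cold 1, below the 10.2 to 10.7 of the others. Parp14 was at 14.2 CPM in control cold 3, against 7.06 to 8.03. Tap1 was at 6.77 CPM in KO cold 4, against 2.45 to 2.81. The 6 values fell in 6 different libraries.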

How the results depend on the processing

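The 20 interferon-stimulated genes called lower in control cold became 13 when only the 2 groups compared were fitted, and 13 to 21 with 1 library left out. The 8 called in KO cold ranged from 6 to 9, the 0 between genotypes in the cold from 0 to 1, and the 0 for the other 2 comparisons stayed at 0. Over all genes, the 2793 called in control cold became 1685 with only those groups (1067 to 2821 with a library left out), the 2090 in KO cold ranged from 1219 to 2271, and the 657 between genotypes in the cold from 392 to 716. The 0 between genotypes at RT became 3 with DESeq2 (0 to 3 with a library left out). The 2 for the difference of cold responses became 29 with DESeq2 and 0 to 4 with a library left out. With a library left out, the B2m change in control cold ran from -0.85 (without control RT replicate 1) to 0.0067 (without control RT replicate 2), a change of sign. Without the filter on low counts, none of the 8 untested genes was called in any of the 5 comparisons. Low counts per library limit most of these genes.

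Replicate numbers are shared across groups but did not pair the libraries: of 16 same-numbered pairs 3 had a correlation of deviations over 0.1 (-0.23 to 0.33). With the number as a block, 16 of the interferon-stimulated genes were called in control cold and 8 in KO cold; over all genes 2122 and 1629 were called, with 564 between genotypes in the cold and 0 for the difference.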
